A study of Mus musculus with 12 samples.

Results

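The 8 genes described here, Nos2, Gch1, Ass1, Arg1, Ido1, Kmo, Kynu and Sod2, encode enzymes that use arginine or tryptophan, or that make or remove reactive nitrogen and oxygen species. They were chosen by name, with earlier results of these data known, and followed in 12 arrays of skin from female Balb/c mice. Of these arrays 3 came from untreated mice, and 3 each from skin taken 1.5 h, 6 h and 24 h after an intradermal dose of RNAdjuvant. This vaccine adjuvant is a non-coding RNA held in complexes by a cationic peptide, and the labels give the dose as 25 mg. Mice given the carrier alone were not analysed here, so the needle and the adjuvant cannot be told apart. The labels speak of biological replicates without saying whether each is a separate mouse, so p-values measure the spread between these samples. Each gene was read from the probe set that the platform annotation gives to that gene alone, the brightest one where there were several. This left 7 of the 8 genes, among 19938 genes measured in this way. Both probe sets that list Ass1, argininosuccinate synthase, also list the predicted gene Gm5424, and Ass1 has no value here.

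Inducible nitric oxide synthase, the product of Nos2, makes nitric oxide and citrulline from arginine and is best known from macrophages exposed to interferons and microbial products. It needs the cofactor tetrahydrobiopterin, whose synthesis starts with GTP cyclohydrolase, the product of Gch1, and arginase, the product of Arg1, competes with it for arginine. Ido1 encodes indoleamine dioxygenase, which opens the ring of tryptophan on the way to kynurenine, and Kmo and Kynu encode the monooxygenase and the hydrolase that act on kynurenine next. Sod2 encodes the manganese superoxide dismutase of mitochondria. In skin, epidermis and hair follicles as well as leukocytes can express genes of this group.

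Values are log2 intensities as the authors deposited them, and a difference of 1 is 2-fold. A probe set's brightness depends on its own sequence, so levels are compared within a gene only. Changes were tested with limma, and an adjusted p under 0.05 over all 19938 genes counted as a change. The mean of 8 skin markers, of keratinocytes and fibroblasts, was 11.59 to 11.74 in untreated skin, 11.42 to 11.57 at 1.5 h, 11.54 to 11.63 at 6 h and 11.20 to 11.63 at 24 h. Of the 8, limma called Krt1 alone against untreated skin, which fell by 0.44 at 24 h on the log2 scale (adjusted p = 0.0436). A pair of libraries stood apart: Glycam1, a gene of lymph node vessels, measured 11.38 in 1.5 h replicate 1 and 10.88 in 6 h replicate 1, and 3.87 to 4.46 on the other 10 arrays. Markers of glandular epithelium split the arrays as well: the mean of 6 genes was 5.58 to 5.77 in untreated skin, 7.46 to 8.58 at 1.5 h, 8.05, 5.501 and 5.40 in the 3 replicates at 6 h, and 7.25 to 7.78 at 24 h. Of these 6, 3 rose at 1.5 h (Krt19, Krt8 and Elf5) and 1 at 24 h (Krt8), and Krt19 and Elf5 were lower at 6 h than at 1.5 h. The part of such tissue in the differences between groups given here was not tested. In bulk tissue, fewer cells of a type and less RNA per cell cannot be told apart.

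In all, 3 of the 7 genes differed between the groups at any time after RNAdjuvant (moderated F test), against 11.4% of all genes: Nos2, Gch1 and Kmo. The call of Kmo was lost in 10 of the 12 fits that left out 1 library, controls included (adjusted p up to 0.0886, without 6 h replicate 1). It was lost as well in 7 of the 14 other alternatives to the main fit, among them all 3 rescalings (adjusted p = 0.0578 to 0.103). Arg1 passed this F test in 4 of 26 alternatives and Kynu in 1 of 25 (lowest adjusted p = 0.0318 and 0.0275). The count of 3 thus ranged from 2 to 4. At 1.5 h none passed: limma called 0 of 7 against untreated skin, with 2 at an unadjusted p under 0.05 (Gch1 and Sod2), and 2.2% of all genes were called. At 6 h Nos2, Gch1 and Kmo rose and 4 genes did not pass, against 3.38% of all genes that rose and 6.09% called in either direction. At 24 h Nos2 and Gch1 rose and 5 did not pass, against 2.55% of all genes that rose and 3.36% called in either direction. No member fell against untreated skin at any of the 3 times. The median log2 change of the 7 genes was 0.24 at 1.5 h, 0.38 at 6 h and 0.41 at 24 h, beside 0.022, -0.042 and 0.00075 for all genes. The 3 treated values lay clear of the 3 untreated ones, in either direction, in 1 of 7 genes at 1.5 h, 6 of 7 at 6 h and 5 of 7 at 24 h, beside 25.1%, 30.8% and 23.3% of all genes. Of the genes clear at 6 h, Arg1 lay below untreated skin and the others above it. The gap there was 0.027 for Kynu, 0.013 for Sod2 and 0.031 for Arg1.

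**Figure D1:**
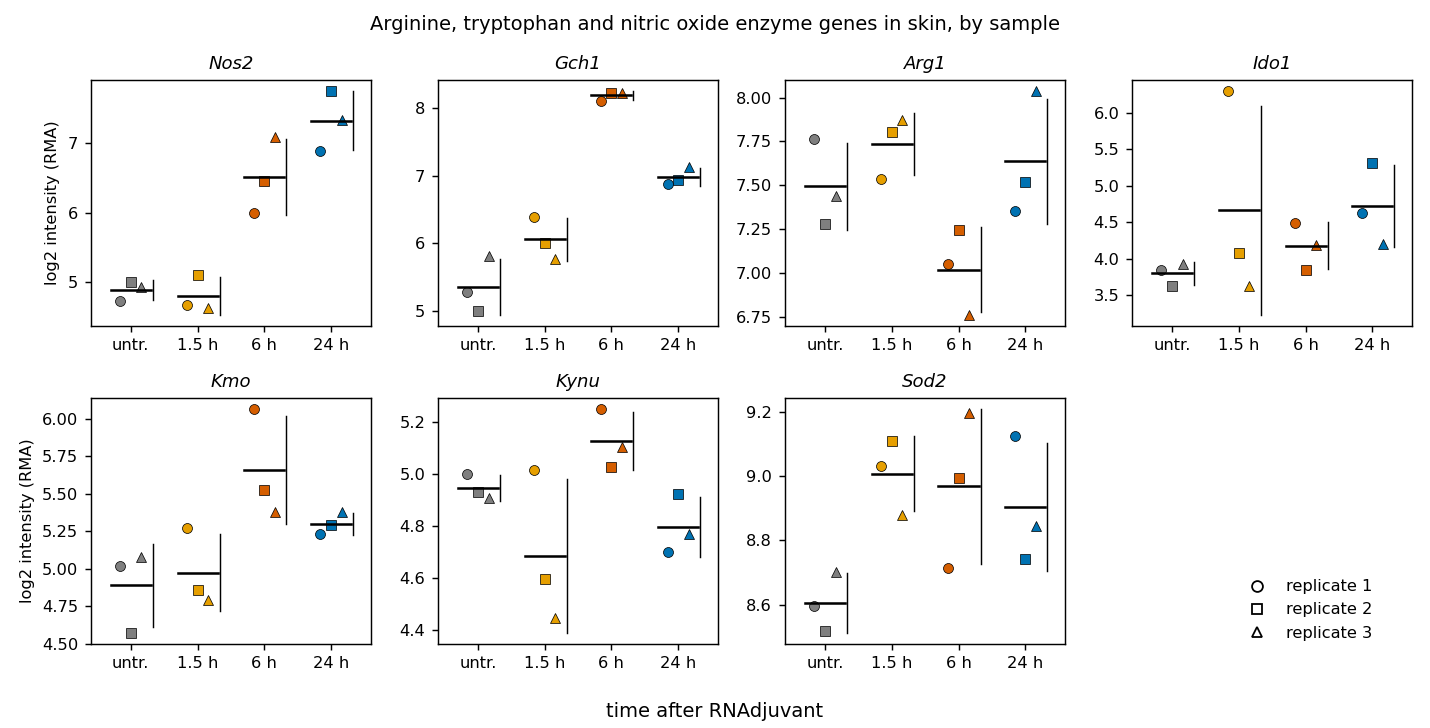
Log2 intensity of the 7 measured genes on each of the 12 arrays, with untreated skin (untr.) and skin 1.5 h, 6 h and 24 h after RNAdjuvant along the x axis. Symbols are replicates, the horizontal line is the mean of 3 arrays and the vertical line beside it spans 1 SD to each side. Nos2 is highest at 24 h, Gch1 at 6 h, and the single high Ido1 value at 1.5 h is 6.30 in replicate 1.

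Nos2 (probe set 10379228) was near its untreated level at 1.5 h and stood higher at both later times. It measured 4.72, 4.999 and 4.92 in untreated skin, 4.66, 5.11 and 4.63 at 1.5 h, 6.00, 6.46 and 7.09 at 6 h, and 6.90, 7.75 and 7.34 at 24 h. All 6 values at 6 h and 24 h exceeded all 6 of the earlier groups. The mean was 6.51 ± 0.55 at 6 h against 4.88 ± 0.14 in untreated skin (SD, n = 3 each), a 3.11-fold rise (95% interval 2.12 to 4.54, adjusted p = 0.00133). At 24 h it reached 7.33 ± 0.43 (SD, n = 3), 5.46-fold above untreated skin (95% interval 3.73 to 7.99, adjusted p = 4.22e-05). At 1.5 h the log2 change was -0.082 ± 0.25 (SE, adjusted p = 0.901). The step between 6 h and 24 h, a log2 difference of 0.81 ± 0.25 (SE), did not pass (adjusted p = 0.0973), and the 2 groups overlapped. That step passed without 6 h replicate 3 (1.101, adjusted p = 0.0406).

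Some leukocyte markers rose at the times when Nos2 did, and their part in its rise was not tested. Of 9 measured monocyte and macrophage markers, 1 rose at 6 h (Fcgr1) and 3 at 24 h (Fcgr1, Ccr2 and Adgre1), with 8 and 6 not called. The mean of that list was 8.01 to 8.60 in untreated skin, 8.33 to 8.85 at 1.5 h, 8.37 to 8.9999 at 6 h and 8.98 to 9.44 at 24 h. Of 11 neutrophil markers 3 rose at 1.5 h, 2 at 6 h and 3 at 24 h, with list means of 5.30 to 5.62 in untreated skin, 5.81 to 7.001 at 1.5 h, 5.68 to 6.33 at 6 h and 5.90 to 6.05 at 24 h. By its group means this list was highest at 1.5 h (6.24, beside 5.97 at 6 h and 5.98 at 24 h). There replicate 1, a library high in Glycam1, measured 7.001, and replicates 2 and 3 measured 5.81 and 5.90. Ly6g, a defining neutrophil marker, had the lowest mean of the list in every group. It measured 3.14, 2.91 and 3.06 in untreated skin, and 3.96, 2.85 and 3.12 at 1.5 h. Its values were 3.37, 3.65 and 4.24 at 6 h, and 3.17, 3.46 and 3.72 at 24 h. Ly6g was not called at any of these times (adjusted p = 0.638, 0.128 and 0.460). Elsewhere in the list, S100a9 measured 10.09, 8.96 and 8.73 at 1.5 h against 7.33, 6.78 and 6.67 in untreated skin. Cxcr2 measured 5.97, 5.80 and 5.54 against 4.38, 4.39 and 4.60, and S100a8 10.35, 8.77 and 9.12 against 9.77, 9.38 and 9.55. Of 10 T and NK cell markers 1 rose at 6 h and 4 at 24 h, with 9 and 6 not called. The list mean was 6.07 to 6.37 at 24 h against 4.99 to 5.15 in untreated skin. In that list Gzmb measured 9.56, 9.71 and 9.58 at 24 h against 4.61, 4.86 and 4.57 in untreated skin. Ncr1 measured 5.79, 6.60 and 5.94 against 3.88, 4.07 and 4.42, and Klrd1 6.08, 6.62 and 6.45 against 5.29, 4.23 and 5.17. Prf1 measured 7.02, 7.91 and 7.60 against 6.24, 6.05 and 5.81. Of the T cell genes in the list, Cd3e measured 7.28, 7.69 and 7.57 at 24 h against 7.68, 7.48 and 7.53. Cd8a measured 5.59, 5.81 and 5.83 against 5.27, 5.13 and 4.90. Without the 2 libraries high in Glycam1, Nos2 rose by 1.89 at 6 h and 2.45 at 24 h on the log2 scale (adjusted p = 0.000571 and 2.35e-05).

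**Figure D2:**
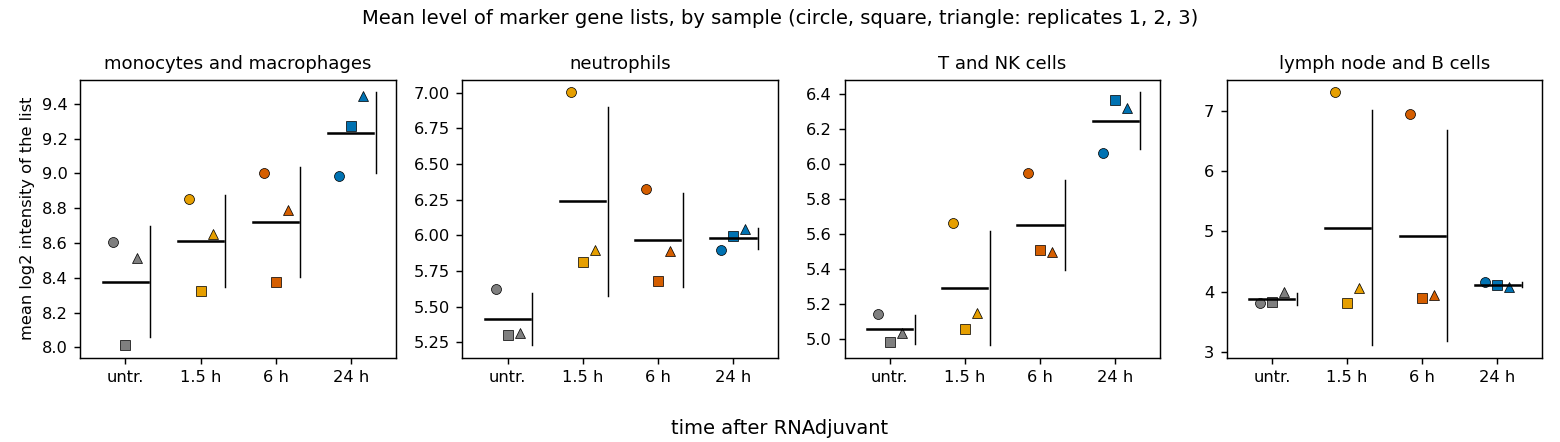
Mean log2 intensity of 4 marker lists on each array (9 monocyte and macrophage, 11 neutrophil, 10 T and NK cell, and 5 lymph node and B cell genes), by group along the x axis. Lines show the mean and 1 SD to each side for 3 arrays. The monocyte and macrophage list and the T and NK cell list are highest at 24 h, and the lymph node list reaches 7.30 and 6.95 in replicate 1 at 1.5 h and at 6 h.

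Gch1 (probe set 10419288), whose product makes the first intermediate of tetrahydrobiopterin, had its highest values at 6 h. It measured 5.28, 5.001 and 5.81 in untreated skin, 6.40, 6.01 and 5.77 at 1.5 h, 8.11, 8.22 and 8.23 at 6 h, and 6.88, 6.93 and 7.13 at 24 h. Values at 6 h lay within 0.13 of each other and clear of every other group, and those at 24 h were clear of untreated and 1.5 h skin. The mean at 6 h was 8.18 ± 0.067 against 5.36 ± 0.41 in untreated skin (SD, n = 3 each), a 7.06-fold rise (95% interval 5.31 to 9.38, adjusted p = 3.59e-07). At 24 h it was 6.98 ± 0.13 (SD, n = 3), 3.07-fold above untreated skin (95% interval 2.31 to 4.08, adjusted p = 0.000136). Between 6 h and 24 h it fell by 1.20 ± 0.19 on the log2 scale (SE, adjusted p = 0.00544), while Nos2 had its highest mean at 24 h. Whether Nos2 and Gch1 differ in that step was not tested. At 1.5 h Gch1 lay 0.70 ± 0.19 above untreated skin on the log2 scale (SE), which did not pass (adjusted p = 0.0803). It passed without untreated replicate 3 (0.92, adjusted p = 0.0378). Without the 2 libraries high in Glycam1 its log2 change was 2.86 at 6 h and 1.62 at 24 h (adjusted p = 1.64e-06 and 0.000121).

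RefSeq promoter sequences (GRCm38.p6) were at hand for 4 of the 8 genes, among them Gch1, Kmo and Sod2. The 250 bases before each of their starts are shown to set side by side the 2 genes called at 6 h and the one that was not. Capitals mark matches, on either strand, to 7 motifs: the interferon-stimulated response element (GAAA, any 2 bases, GAAA), the STAT site TTCNNNGAA, the NF-kB site (GGGA, any base, TTTCC), the GC box GGGCGG, the CCAAT box, the TATA box TATAAA and the cyclic AMP half-site TGACG.
Gch1 (chr14:47189414-47189663, minus strand): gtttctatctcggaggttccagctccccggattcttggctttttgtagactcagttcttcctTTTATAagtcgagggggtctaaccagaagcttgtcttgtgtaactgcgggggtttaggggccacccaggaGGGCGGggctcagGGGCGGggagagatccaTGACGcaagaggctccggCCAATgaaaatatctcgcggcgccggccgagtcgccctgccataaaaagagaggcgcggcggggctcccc
Kmo (chr1:175631943-175632192, plus strand): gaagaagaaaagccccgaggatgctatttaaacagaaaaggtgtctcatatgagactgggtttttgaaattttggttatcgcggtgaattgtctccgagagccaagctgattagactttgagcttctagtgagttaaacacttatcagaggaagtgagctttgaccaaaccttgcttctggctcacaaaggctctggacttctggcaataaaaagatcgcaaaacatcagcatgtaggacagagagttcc
Sod2 (chr17:13007589-13007838, plus strand): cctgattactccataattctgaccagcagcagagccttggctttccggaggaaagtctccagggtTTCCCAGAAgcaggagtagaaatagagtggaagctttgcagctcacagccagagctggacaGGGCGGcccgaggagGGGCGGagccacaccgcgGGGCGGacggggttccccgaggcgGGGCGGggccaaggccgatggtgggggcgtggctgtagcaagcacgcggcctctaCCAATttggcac
The Gch1 window held 2 GC boxes (32.7% of all 32851 such windows hold at least 1), 1 CCAAT box (33.8% of windows), 1 cyclic AMP half-site (17.8%) and 1 TATAAA on the opposite strand (12.4%). The Sod2 window held 4 GC boxes, 1 CCAAT box and 1 STAT site (7.02% of windows), whose pattern TTCNNNGAA matches on both strands. No match overlapped another in these windows. Neither the interferon-stimulated response element (2.98% of windows) nor the NF-kB site (0.356%) was spelled in any of the 3 windows, and the Kmo window matched none of the 7 motifs. Of the bases, 59.2% were G or C for Gch1, 42.8% for Kmo and 63.6% for Sod2, beside a median of 52.4% over all windows.

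Arg1 (probe set 10368343) showed no call against untreated skin, and its lowest values came at 6 h. It measured 7.77, 7.28 and 7.44 in untreated skin, 7.54, 7.80 and 7.87 at 1.5 h, 7.05, 7.25 and 6.76 at 6 h, and 7.35, 7.52 and 8.04 at 24 h. All 3 values at 6 h were below all others, with a gap of 0.031 to the lowest untreated one. The log2 change at 6 h was -0.47 (95% interval -0.88 to -0.071, adjusted p = 0.151), and it was 0.24 at 1.5 h and 0.14 at 24 h (adjusted p = 0.530 and 0.754). Against 1.5 h, however, Arg1 fell by 0.72 ± 0.19 at 6 h on the log2 scale (SE, adjusted p = 0.0257). That call was lost when 1.5 h replicate 2, 1.5 h replicate 3 or 6 h replicate 3 was dropped (adjusted p = 0.0814, 0.0686 and 0.0842), and when both libraries high in Glycam1 were (adjusted p = 0.0534). Without moderation or after cyclic loess it was lost too (adjusted p = 0.0793 and 0.0512). A floor at the 20th percentile, testing all probe sets (adjusted p = 0.0598 and 0.0516) and a threshold of 0.01 did the same. The log2 difference of 0.62 at 24 h against 6 h missed the threshold (adjusted p = 0.0882) except with arrays centred on their medians (0.71, adjusted p = 0.0488). Markers of liver, an organ rich in arginase, lay between 4.37 and 4.69 as a list mean on all arrays. Of 6 markers of alternatively activated macrophages, a cell state known for arginase, 2 were called against untreated skin: Cd163 fell by 0.77 at 6 h and Chil3 rose by 1.82 at 24 h on the log2 scale (adjusted p = 0.0437 and 0.0101). The median log2 change of the 6 was 0.14 at 1.5 h, -0.13 at 6 h and -0.24 at 24 h, and their mean level overlapped untreated skin at every time.

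Ido1 (probe set 10577655) was not called at any time, and 1 library carried most of its spread. By its mean, Ido1 stood at percentile 14.6 of all genes in untreated skin. At 1.5 h, 6 h and 24 h it stood at 25.7, 17.8 and 26.1. The arrays came without detection p-values, so whether its lower values exceed background was not tested. It measured 3.84, 3.62 and 3.92 in untreated skin, 6.30, 4.08 and 3.62 at 1.5 h, 4.49, 3.84 and 4.19 at 6 h, and 4.63, 5.32 and 4.20 at 24 h. Its value of 6.30 belongs to 1.5 h replicate 1, which was also highest in Glycam1, and the part of lymph node tissue in it was not tested. The other library high in Glycam1, 6 h replicate 1, had the highest Ido1 value of its group (4.49). At 24 h all 3 values exceeded the untreated ones, by at least 0.28. The log2 change was 0.87 ± 0.51 at 1.5 h, 0.38 ± 0.51 at 6 h and 0.92 ± 0.51 at 24 h (SE, adjusted p = 0.396, 0.679 and 0.383). Without 1.5 h replicate 1 the change at 1.5 h was 0.054. Without both libraries high in Glycam1 the change at 24 h was 0.92 with an adjusted p of 0.0515. The 95% interval at 24 h, 0.885- to 4.06-fold, holds both no change and a rise of several fold.

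Kmo (probe set 10352000) rose at 6 h by a smaller step than Nos2 and Gch1. It measured 5.02, 4.57 and 5.08 in untreated skin, 5.27, 4.86 and 4.79 at 1.5 h, 6.06, 5.53 and 5.38 at 6 h, and 5.23, 5.29 and 5.38 at 24 h. Values at 6 h were above all others, by 0.0050 over the highest at 24 h. The mean at 6 h was 5.66 ± 0.36 against 4.89 ± 0.27 in untreated skin (SD, n = 3 each), a 1.70-fold rise (95% interval 1.29 to 2.25, adjusted p = 0.0272). The call was lost when 1 of 4 libraries was dropped, untreated replicates 1 and 2 and 6 h replicates 1 and 2 (adjusted p = 0.0521, 0.0934, 0.074 and 0.0544), and after quantile normalization or cyclic loess (adjusted p = 0.0609 and 0.0713). Kmo also missed the threshold without moderation and with a floor at the 20th percentile (adjusted p = 0.091 and 0.0674). The same held in a fit of only the groups compared and with all probe sets tested (adjusted p = 0.0638 and 0.0726). A threshold of 0.01 lost the call too. At 24 h Kmo lay 0.41 ± 0.19 above untreated skin on the log2 scale (SE, adjusted p = 0.281). Without both libraries high in Glycam1 the change at 6 h was 0.56 (adjusted p = 0.0473).

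Kynu (probe set 10471912) stayed within a narrow range. It measured 5.001, 4.93 and 4.91 in untreated skin, 5.02, 4.60 and 4.45 at 1.5 h, 5.25, 5.03 and 5.11 at 6 h, and 4.70, 4.92 and 4.77 at 24 h. Its log2 change was -0.26 at 1.5 h, 0.18 at 6 h and -0.15 at 24 h (adjusted p = 0.340, 0.439 and 0.619), with a 95% interval at 6 h of 0.926- to 1.39-fold. Against 1.5 h it rose by 0.44 ± 0.14 at 6 h (SE, adjusted p = 0.0473), a call lost without any of 10 of the 12 libraries (adjusted p up to 0.149, without 1.5 h replicate 3) and under each of the 3 other scalings of the arrays.

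Sod2 (probe set 10441815) was above untreated skin on all 9 arrays of treated skin, by a small amount that did not pass at any time. It measured 8.60, 8.52 and 8.70 in untreated skin, 9.03, 9.11 and 8.88 at 1.5 h, 8.72, 8.99 and 9.20 at 6 h, and 9.13, 8.74 and 8.84 at 24 h. Its log2 change was 0.40 ± 0.14 at 1.5 h, 0.36 ± 0.14 at 6 h and 0.30 ± 0.14 at 24 h (SE, adjusted p = 0.147, 0.136 and 0.287). The 95% interval of the change at 1.5 h was 1.08- to 1.62-fold. The 3 treated groups overlapped each other, and the differences between them did not pass (adjusted p = 0.784 to 0.878).

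**Figure D3:**
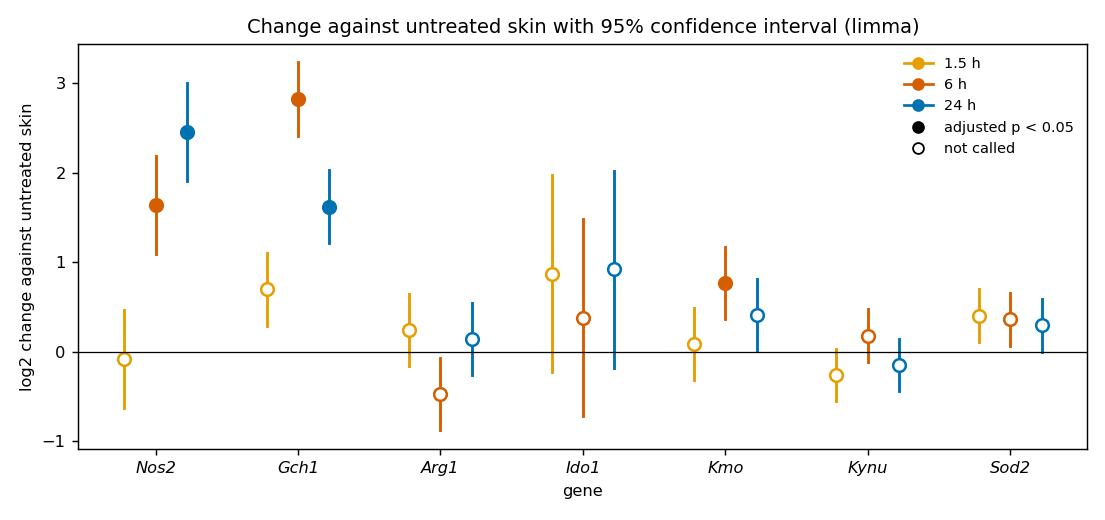
Log2 change against untreated skin for the 7 genes at 1.5 h, 6 h and 24 h, with 95% confidence intervals from limma. Filled points passed at an adjusted p under 0.05: Nos2 and Gch1 at 6 h and 24 h, and Kmo at 6 h. The interval of Ido1 is the widest, and those of Sod2 and Kynu are among the narrowest.

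Comparing the times with each other, 5 of the 7 genes differed between 6 h and 1.5 h, against 13.3% of all genes (5.47% higher and 7.8% lower): Nos2 (log2 difference 1.72, adjusted p = 0.00088), Gch1 (2.12, adjusted p = 7.21e-06), Kmo (0.68, adjusted p = 0.0302) and Kynu were higher at 6 h, and Arg1 was lower. Of all genes called here, 41.2% were higher at 6 h, beside 16.5% with arrays centred on their medians, where the median difference of all genes was -0.17 in place of -0.034, and 54.96% after cyclic loess. The call of Kmo depended on 4 libraries, 1.5 h replicates 2 and 3 and 6 h replicates 1 and 2 (adjusted p up to 0.1003, when 1.5 h replicate 2 was dropped). The count was 2 without 1.5 h replicate 2 or 3, and 3 without any 6 h library. Between 24 h and 6 h Gch1 alone passed and fell, against 1.41% of all genes that fell and 3.44% called in either direction, and the count was 2 without 6 h replicate 3, which added Nos2. Between 24 h and 1.5 h Nos2 (2.53, adjusted p = 4.63e-05) and Gch1 (0.92, adjusted p = 0.0165) were higher at 24 h, against 2.24% of all genes that were higher and 2.91% called in either direction. The Gch1 call was lost when any of 4 libraries was dropped, replicates 2 and 3 of both times (adjusted p up to 0.0766), leaving a count of 1. Ordered by mean level, Nos2 thus ran 1.5 h, untreated, 6 h, 24 h, with neither of the first 2 groups nor of the last 2 separated by the test. Gch1 ran untreated, 1.5 h, 24 h, 6 h, with the first step alone not passing. For Kmo the order was untreated, 1.5 h, 24 h, 6 h, and no step between neighbours passed.

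Over the 12 arrays, the genes whose log2 values ran most like those of Gch1 were Ccl12, Plscr2 and Mx2 (Pearson r = 0.988, 0.987 and 0.985), among genes whose group means span at least 1 log2 unit. For Nos2 they were AA467197, Lilr4b and H2-Q4 (r = 0.956, 0.950 and 0.950), and for Kmo Cd226, Ifit1bl2 and Marchf5 (r = 0.908, 0.906 and 0.903). Sod2 ran most like Socs3, Has1 and Bcl3 (r = 0.868, 0.854 and 0.804), and Ido1 most like Spib, Aoc1 and Cxcl15 (r = 0.851, 0.845 and 0.837). The Ido1 values include 6.30 in 1.5 h replicate 1, beside at most 5.32 on any other array, and r without that library was not computed. For Arg1 the genes were Etfbkmt, Ndufa4l2 and Eola1 (r = 0.919, 0.837 and 0.824), and for Kynu Fmnl2, Mir680-2 and Ccl19 (r = 0.821, 0.798 and 0.794). Within the group, Gch1 and Kmo had the highest r (0.856), Nos2 and Gch1 had 0.701, and Arg1 and Kynu had the lowest (-0.687). These values describe arrays that share their groups and carry no test. Genes named by a number after Gm, LOC, BC, AI, AW or ENSMUSG, and Rik genes, were skipped when the most alike were ranked.

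The rest of each pathway was read from lists of other genes, 67 of 73 of which were measured. Of the 67, 1 rose and 0 fell at 1.5 h, 5 rose and 1 fell at 6 h, and 5 rose and 0 fell at 24 h. That is 1.49%, 8.96% and 7.46% of the lists, beside the shares of all genes given above.

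Of 20 measured genes of arginine, citrulline and nitric oxide metabolism, Sat1 rose and Ddah2 fell at 6 h, 18 did not pass, and at 1.5 h and 24 h limma called 0 (2 and 4 at an unadjusted p under 0.05). Sat1, which acetylates polyamines made from arginine, measured 8.79, 8.87 and 9.15 at 6 h against 8.25, 8.20 and 8.36 in untreated skin (1.58-fold, adjusted p = 0.0452). Ddah2, a relative of the enzyme that breaks down methylated arginines, measured 8.33, 7.92 and 7.91 at 6 h against 8.73, 8.48 and 8.79 in untreated skin and fell by 0.61 (adjusted p = 0.0173). Both sets of values were clear of each other in either gene. The call of Sat1 was lost without any of 8 libraries, controls included (adjusted p up to 0.150, without 6 h replicate 3). The Ddah2 call depended on 4 libraries, untreated replicates 1 and 3 and 6 h replicates 2 and 3 (adjusted p up to 0.0797). Nos1 and Nos3, the neuronal and endothelial nitric oxide synthases, had log2 changes of -0.061 and 0.12 at 6 h and -0.46 and 0.063 at 24 h (adjusted p = 0.864, 0.610, 0.248 and 0.856). Arg2, the mitochondrial arginase, had log2 differences from untreated skin of 0.051 at 6 h and 0.19 at 24 h (adjusted p = 0.836 and 0.497). The arginine transporter gene Slc7a2 differed by -0.059 and -0.13 at those times, and Asl, which cleaves argininosuccinate, by -0.14 and 0.19, with none called (adjusted p = 0.816, 0.668, 0.560 and 0.532).

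None of the 6 other measured genes of tetrahydrobiopterin metabolism was called by limma against untreated skin at 1.5 h, 6 h or 24 h (0, 1 and 0 at an unadjusted p under 0.05). Pts and Spr, which complete the synthesis that Gch1 starts, had log2 changes of -0.13 and -0.16 at 6 h (adjusted p = 0.565 and 0.412), where Gch1 rose by 2.82. Gchfr, the feedback regulator of the Gch1 enzyme, had uncalled differences of 0.36 at 6 h and 0.39 at 24 h (adjusted p = 0.392 and 0.452). Qdpr, which recycles the cofactor, had uncalled differences of -0.24 and -0.15 (adjusted p = 0.339 and 0.642). Whether Gch1 differs from these genes was not tested.

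Of 18 genes of the tryptophan and kynurenine list, Wars and Cyp1b1 rose at 6 h and Wars at 24 h, none fell, and limma called 0 at 1.5 h (7 at an unadjusted p under 0.05). Wars, which loads tryptophan onto its transfer RNA, measured 8.58, 8.48 and 8.71 at 6 h and 8.41, 8.51 and 8.43 at 24 h, against 7.71, 7.70 and 7.95 in untreated skin. All 6 later values exceeded the untreated ones, a 1.74-fold rise at 6 h and a 1.59-fold rise at 24 h (adjusted p = 0.000306 and 0.00203). Cyp1b1, a cytochrome P450 gene switched on by the aryl hydrocarbon receptor, measured 8.94, 9.17 and 9.23 at 6 h against 8.46, 8.33 and 8.27 in untreated skin (1.69-fold, adjusted p = 0.00354). These 3 calls passed in all 12 fits that left out 1 library. Ido2 and Tdo2, the other genes of the first step of tryptophan breakdown, had uncalled log2 differences of 0.21 and -0.42 at 6 h and 0.35 and -0.14 at 24 h (adjusted p = 0.479, 0.427, 0.329 and 0.868). Afmid, Haao and Qprt, which act around and after Kmo and Kynu, had uncalled differences of 0.35, 0.054 and 0.33 at 6 h (adjusted p = 0.074, 0.835 and 0.1002).

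Of 23 other measured superoxide and peroxide genes, 1 rose at 1.5 h, 2 at 6 h and 4 at 24 h, and none fell against untreated skin. The NADPH oxidase of phagocytes, which makes superoxide, supplied 4 of the 5 genes called. Cybb, its catalytic subunit, measured 9.51, 8.996 and 9.36 at 6 h and 8.77, 9.22 and 9.22 at 24 h, against 8.40, 7.34 and 8.12 in untreated skin (2.52- and 2.17-fold, adjusted p = 0.0101 and 0.0403). Cyba, its membrane partner, measured 9.22, 9.37 and 9.71 at 24 h against 8.51, 7.98 and 8.35 in untreated skin (2.22-fold, adjusted p = 0.0133). Ncf4, a cytosolic subunit, measured 7.11, 7.27 and 7.44 at 24 h against 6.44, 6.08 and 6.40 in untreated skin (1.96-fold, adjusted p = 0.00139). Ncf1, another cytosolic subunit, rose 1.63-fold at 1.5 h and 1.57-fold at 24 h (adjusted p = 0.0424 and 0.0457), each call lost without any of 8 libraries (adjusted p up to 0.169 and 0.179, without untreated replicate 2 and 24 h replicate 3). The call of Cybb at 24 h was lost without any of 6 libraries (adjusted p up to 0.148, without untreated replicate 2), and that of Cyba when untreated replicate 2 or 24 h replicate 3 was dropped (adjusted p = 0.0706 and 0.0754). Txn1, a thioredoxin, rose 1.30-fold at 6 h (adjusted p = 0.0348), a call lost without any of 5 libraries (adjusted p up to 0.114, without untreated replicate 2). Of the 4 subunits called at 24 h, Ncf4 passed in all 12 fits that left out 1 library. Beside these subunits, 3 of 9 monocyte and macrophage markers rose at 24 h, and of 11 neutrophil markers 3 rose at 1.5 h, where Ncf1 was called, and 3 at 24 h. The part of these cells was not tested. Sod1 and Sod3, the cytosolic and extracellular superoxide dismutases, had uncalled log2 differences of -0.085 and -0.30 at 6 h and 0.050 and 0.15 at 24 h (adjusted p = 0.715, 0.290, 0.885 and 0.682).

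**Figure D4:**
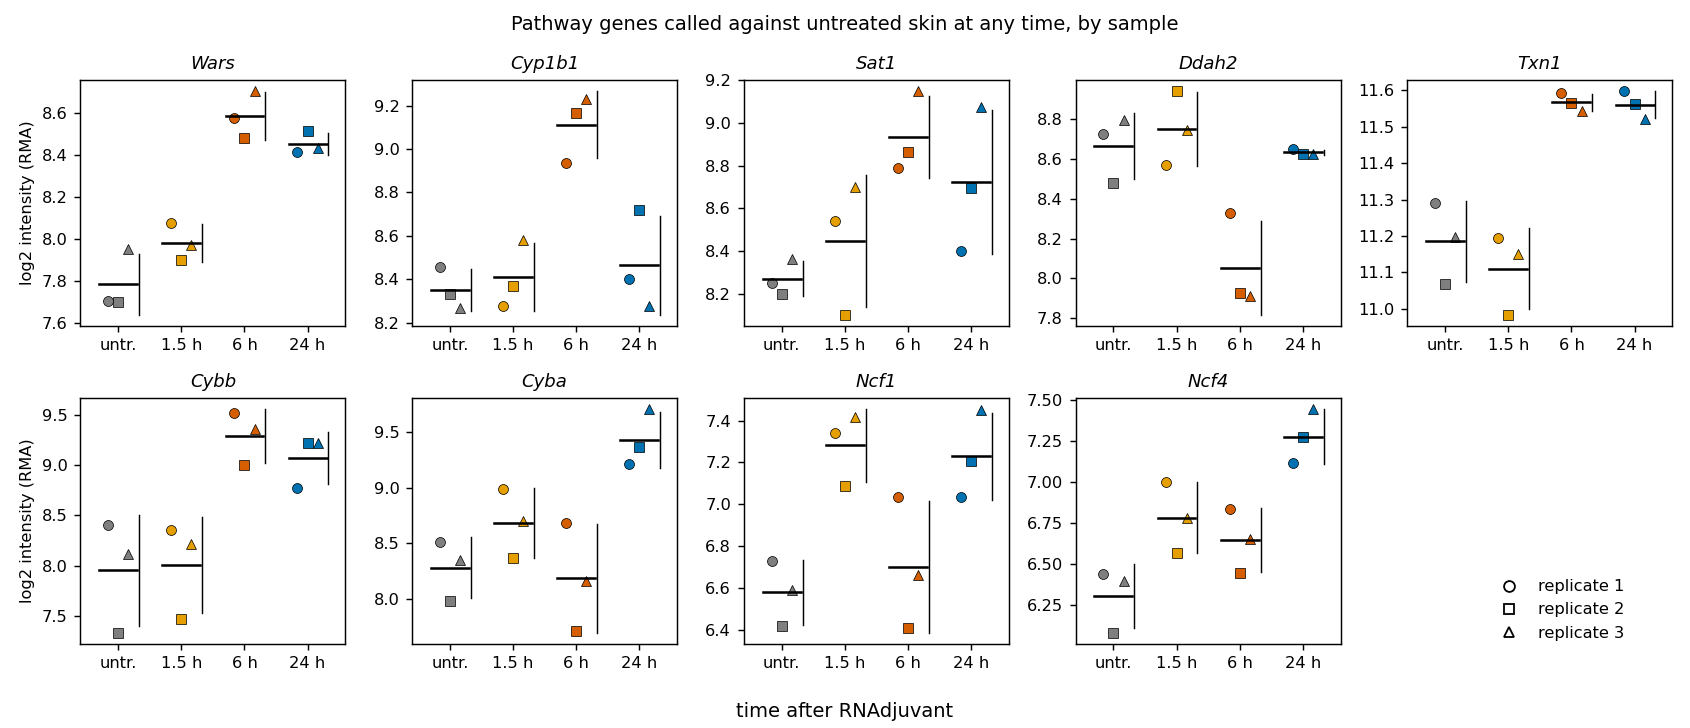
Log2 intensity on each array of the 9 pathway genes called against untreated skin at any time, by group along the x axis, with the mean and 1 SD to each side of 3 arrays. The 3 values of Wars at 6 h and at 24 h lie above all untreated ones, Cyp1b1 is high at 6 h alone by its means, and the NADPH oxidase genes Cyba and Ncf4 have their highest means at 24 h.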

How the data were processed

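The authors deposited log2 intensities per probe set for 12 arrays. The submitters' processing notes name Affymetrix Expression Console 1.1 and RMA. Their 35556 probe sets ranged from 0.65 to 14.11, with array medians of 5.53 to 5.76, and came without detection p-values, so none was treated as absent. Precision is limited by 3 arrays a group. The platform annotation gave 21789 probe sets 1 symbol. A gene with several was read from the one brightest on average, which gave 19938 genes.

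One model over the 4 groups was fitted in R 4.3.3 with limma 3.58.1 (lmFit, eBayes; 8 residual and 5.24 prior degrees of freedom), for 6 two-sided comparisons and a moderated F test over the 3 with untreated skin, adjusted by Benjamini-Hochberg over all genes. An exact permutation test of 3 against 3 cannot go below p = 0.1 and was not used. The steps were tested on simulated data. Members and lists were chosen with earlier results of these data known. Named were all members, list genes called against untreated skin and, per member, the 3 genes most like it among those whose group means span 1 log2 unit. That ranking skipped genes with Gm, LOC, BC, AI, AW, ENSMUSG or Rik names. Uncalled list genes with values were picked for their role, after their values were seen. Motifs were searched in RefSeq promoters. Alternatives covered variance models, scalings, filters, probe set choice, thresholds and leaving out libraries.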

Additional observations from a re-analysis of the deposited data

Results flagged for a closer look

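Single outlying samples were not tested for, since each group holds 3 arrays. The results below had a difference between times that itself passed in limma. Of the 7 genes, Nos2 was higher at 6 h and at 24 h than at 1.5 h (log2 differences 1.72 and 2.53). Gch1 was higher at 6 h and at 24 h than at 1.5 h (2.12 and 0.92) and lower at 24 h than at 6 h (-1.20). Kmo and Kynu were higher (0.68 and 0.44) and Arg1 was lower (-0.72) at 6 h than at 1.5 h.

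Cyp1a1, which like Cyp1b1 is a target of the aryl hydrocarbon receptor, was named after its values were seen. It measured 6.41, 5.87 and 6.27 in untreated skin, 6.54, 6.71 and 6.77 at 1.5 h, 6.60, 7.11 and 7.24 at 6 h, and 5.47, 5.90 and 4.97 at 24 h. It was lower at 24 h than at 6 h and at 1.5 h (-1.54 and -1.23, adjusted p = 0.00326 and 0.00679), passing in all 12 fits that left out 1 library. Against untreated skin its changes of 0.80 at 6 h and -0.74 at 24 h did not pass (adjusted p = 0.0512 and 0.0995). Cyp1b1 was higher at 6 h than at 1.5 h (0.70) and lower at 24 h than at 6 h (-0.65). Ahr, the gene of the aryl hydrocarbon receptor, had means of 8.37 in untreated skin and 8.04, 8.21 and 8.09 at 1.5 h, 6 h and 24 h. Ahrr, of the same list, had means of 5.07, 4.64, 4.91 and 4.80. Neither was called against untreated skin.

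Of the 67 other pathway genes, 4 were called higher and 9 lower at 6 h than at 1.5 h. That is 19.4%, beside 13.3% of all genes (5.47% higher and 7.8% lower). Between 24 h and 6 h limma called 10.4% of the 67, beside 3.44% of all genes, and between 24 h and 1.5 h 4.48%, beside 2.91%. Among them, Wars and Txn1 were higher than at 1.5 h both at 6 h (0.60 and 0.46) and at 24 h (0.47 and 0.45). Ddah2 was lower at 6 h than at 1.5 h (-0.70) and higher at 24 h than at 6 h (0.58). Prmt1, an arginine methyltransferase, and the pterin dehydratase genes Pcbd1 and Pcbd2 were lower at 6 h than at 1.5 h (-0.50, -0.43 and -0.43). So were Gpx4, Prdx3, Txn2 and Gsr, of peroxide removal (-0.51, -0.80, -0.52 and -0.42). Nosip and Gpx1 were higher at 24 h than at 6 h (0.59 and 0.50). Of the NADPH oxidase genes, Cybb was higher and Ncf1 lower at 6 h than at 1.5 h (1.28 and -0.58), and Cyba and Ncf4 were higher at 24 h than at 6 h (1.24 and 0.63). Prmt1, Pcbd1, Pcbd2, Gpx1, Gpx4, Prdx3, Txn2, Gsr and Nosip were likewise named after their values were seen. Of the differences in this section, those at 6 h against 1.5 h of Nos2, Gch1, Wars, Cyp1b1, Cybb, Ddah2 and Txn2, that of Gch1 at 24 h against 6 h and that of Nos2 at 24 h against 1.5 h passed in all 12 fits that left out 1 library, as did both of Cyp1a1. Each of the others was lost in at least 1 such fit, with adjusted p up to 0.168 for Gpx4 among the pathway genes. All genes called lower at 6 h than at 1.5 h numbered 1556, and 3849 with arrays centred on their medians.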

How the results depend on the processing

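The rises of Nos2 and Gch1 at 6 h and 24 h passed under all 27 alternatives tried, 12 of which left out 1 library, so the count at 24 h was 2 in each. At 6 h the count of 3 was 2 wherever Kmo was lost, and 0 at 1.5 h became 1 when untreated replicate 3 was left out (range 0 to 1). Leaving out single libraries gave counts of 2 to 5 between 6 h and 1.5 h, 1 to 2 between 24 h and 6 h, and 1 to 2 between 24 h and 1.5 h. Between 6 h and 1.5 h the count of 5 became 3 in a fit of only the groups compared, with arrays centred on medians or quantile normalized, and 2 without moderation, after cyclic loess, with a floor at the 20th percentile, with all probe sets tested or at an adjusted p under 0.01. Between 24 h and 6 h it was 0 without moderation and 2 with centred arrays, and between 24 h and 1.5 h it was 1 without moderation, with the floor, with all probe sets or at 0.01. The cause was not tested. Same-numbered samples of different groups had deviations correlating at -0.22 to 0.33 (18 pairs, 4 over 0.1), so replicate numbers were not taken as pairs. With the replicate block the counts of the 7 genes were 0, 3 and 2 at 1.5 h, 6 h and 24 h, as without it, and the block moved no count of all genes by over 1.5 times. Of the named genes' calls, that of Ddah2 between 24 h and 6 h was lost with the block (adjusted p = 0.0545). All genes called numbered 41 to 696 at 1.5 h (439), 540 to 1703 at 6 h (1215), 361 to 866 at 24 h (670), 767 to 4609 between 6 h and 1.5 h (2646), 142 to 1133 between 24 h and 6 h (685), 309 to 753 between 24 h and 1.5 h (580), and 733 to 3386 at any time (2274). The share of these calls that were higher was 27.8% at 1.5 h (56.9% with centred and 43.2% with quantile normalized arrays), 55.5% at 6 h (69.4% after cyclic loess) and 59.0% between 24 h and 6 h (80.2% with centred arrays, 44.0% after cyclic loess).

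No called difference of the 7 genes changed its sign, and some uncalled ones near 0 did. Nos2 at 1.5 h was 0.019 with centred and 0.019 with quantile normalized arrays, and Sod2 between 24 h and 6 h was 0.026 with centred arrays. Sod2 between 6 h and 1.5 h was 0.020 after quantile normalization, 0.10 after cyclic loess and 0.0995 without the 2 libraries high in Glycam1, where Kmo at 1.5 h was -0.064 and Ido1 between 6 h and 1.5 h was 0.17. Leaving out 1 library gave ranges of -0.24 to 0.0046 for Nos2 and -0.074 to 0.18 for Kmo at 1.5 h, -0.058 to 0.28 for Arg1 at 24 h, -1.02 to 0.32 for Ido1 and -0.15 to 0.087 for Sod2 between 6 h and 1.5 h. Between 24 h and 6 h it gave -0.19 to 0.049 for Sod2, and between 24 h and 1.5 h -0.47 to 0.87 for Ido1, -0.0086 to 0.28 for Kynu and -0.30 to 0.041 for Arg1. With dim genes left out Ido1 and Kynu were not tested.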
